A study of Homo sapiens with 5 samples.

Results

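Origins that lie over divergent coding promoters are described here. They were defined as ini-seq 2 origins called after 3 hours whose interval contains the 5' end of at least 1 plus-strand and at least 1 minus-strand protein-coding gene record, with genes from GENCODE and positions on hg38. This rule was met by 681 of 23905 origins (2.85%). It did not use the efficiency value, but the intervals it acts on were called from the same signal that gives the efficiency. They were compared with 6734 origins (28.2%) that contain exactly 1 coding 5' end. A further 181 origins (0.757%) hold several coding 5' ends on 1 strand and 16309 (68.2%) hold none.

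The origins were mapped in nuclei of EJ30, a human bladder carcinoma cell line, which had been arrested in late G1 phase with mimosine and then incubated in cytosolic extract of HeLa cells, a cervical carcinoma line. Replicated DNA incorporated Br-dUTP and became heavy-light (HL), unreplicated DNA stayed light-light (LL), and the efficiency of an origin is HL/(HL + LL), with 0.8 the lowest value called. The lists are 1 from a 3-hour reaction that pools 2 biological replicates, 1 from a 15-minute reaction, and 2 of short nascent strand (SNS-seq) peaks from EJ30 DNA of 0.5 to 2 kb and 2 to 4 kb; the genomic input of SNS-seq was not analysed here. None holds read counts, so the depth behind an efficiency is unknown, each condition has 1 list, and the exact binomial intervals given for shares cover counting error only.

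In a bidirectional promoter 2 genes are transcribed away from each other out of a shared stretch of DNA, often a CpG island that stays free of nucleosomes. Such pairs are known to be common among genes that most cells use, including those for DNA replication, DNA repair and mitochondria. Active promoters, in turn, are frequent sites of replication initiation in human cells, where open chromatin lets the origin machinery load.

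In 461 of the 681 origins (67.7%) the 2 genes stood head to head without overlap, with the minus-strand 5' end to the left. Their 5' ends were a median of 114 bp apart (quartiles 64 and 211 bp, at most 1477 bp), and 392 of the pairs lay within 300 bp. In the other 220 (32.3%) the first parts of the genes overlapped, with the 5' ends a median of 334.5 bp apart. The origins held 2 coding 5' ends in 625 cases, 3 in 53 and 4 in 3, which came to 1421 gene names, and 38 held a non-coding gene start as well. The members lie on chromosomes 1 to 22 and X, none on Y, and make up between 1.9% of the called origins (chromosome 21) and 4.21% (chromosome 14). For 11 of them the category rests on a readthrough gene record.

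The stretch between the 5' ends of some head-to-head members is printed here as it reads on the plus strand of hg38, so that the minus-strand gene runs off to the left and the plus-strand gene to the right. These were chosen because they cover high and low efficiencies, from the most efficient member to 1 of the 5 least efficient, and include replication genes and a member with no SNS-seq peak. Capitals mark matches on either strand to the letters of 6 promoter motifs. These are CCGGAAG for the ETS family of transcription factors, CGCATGCG for the respiratory regulator NRF1, CCAAT for the CCAAT box bound by NF-Y, AAGATGG for the zinc finger factor YY1, GGGCGG for the GC-box factor SP1, and TATAAA for the TATA box. Where 2 matches overlap, the capitals run together.
TSR3/GNPTG: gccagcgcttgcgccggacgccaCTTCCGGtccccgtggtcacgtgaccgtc
POLE/PXMP2: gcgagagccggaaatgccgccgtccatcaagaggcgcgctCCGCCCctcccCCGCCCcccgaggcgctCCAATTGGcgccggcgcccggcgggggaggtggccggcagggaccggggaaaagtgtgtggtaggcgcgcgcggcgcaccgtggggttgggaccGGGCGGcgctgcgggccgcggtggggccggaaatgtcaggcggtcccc
GPR143/SHROOM2: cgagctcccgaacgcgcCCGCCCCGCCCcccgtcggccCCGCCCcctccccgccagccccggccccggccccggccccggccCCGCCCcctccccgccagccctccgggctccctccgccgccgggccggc
TPRA1/MCM2: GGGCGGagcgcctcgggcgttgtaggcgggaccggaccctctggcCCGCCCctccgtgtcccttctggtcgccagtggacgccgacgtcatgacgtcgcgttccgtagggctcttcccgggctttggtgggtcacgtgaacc
TMEM258/FEN1: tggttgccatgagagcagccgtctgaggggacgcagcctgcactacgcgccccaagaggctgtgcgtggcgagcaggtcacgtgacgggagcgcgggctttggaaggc
RECQL/GOLT1B: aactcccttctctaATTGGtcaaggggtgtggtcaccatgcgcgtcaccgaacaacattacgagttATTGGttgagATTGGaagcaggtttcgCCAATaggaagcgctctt
EPS8/STRAP: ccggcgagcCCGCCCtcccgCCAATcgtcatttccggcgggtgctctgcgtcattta

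These stretches lie at chr16:1351879-1351930 (TSR3/GNPTG), chr12:132687377-132687586 (POLE/PXMP2), chrX:9786298-9786428 (GPR143/SHROOM2), chr3:127598268-127598409 (TPRA1/MCM2), chr11:61792803-61792910 (TMEM258/FEN1), chr12:21501670-21501780 (RECQL/GOLT1B) and chr12:15882330-15882386 (EPS8/STRAP). They lie upstream of both genes, and no other gene record covers them. The stretch was 73.1% G and C in the most efficient member, 90.8% in GPR143/SHROOM2 and 66.7% in EPS8/STRAP. The printed stretches did not follow the order of efficiency, and neither did stretches not printed here. The share was 97.3% over 37 bp in the least efficient member, KCTD19/LRRC36 (0.8018), and 62.7% in XRCC3/ZFYVE21 (0.9672). In the RECQL/GOLT1B stretch it was 48.6%, with 4 CCAAT boxes. Over the whole called interval the values were 77.3% for TSR3/GNPTG, 62.8% for EPS8/STRAP and 61.2% for RECQL/GOLT1B.

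The most efficient member was the origin of TSR3, an enzyme that modifies ribosomal RNA, and GNPTG, a subunit of the enzyme that tags lysosomal proteins. Its efficiency was 0.9885 over 700 bp, and it was called at 15 minutes with a Z-score of 0.52 and overlapped a peak of each SNS-seq fraction. POLE, the catalytic subunit of the leading-strand DNA polymerase epsilon, and PXMP2, a peroxisomal membrane protein, followed with 0.9877 over 1400 bp. GPR143, a receptor of pigment cells, and SHROOM2, an actin-binding protein, had 0.9871, and RNF170, a ubiquitin ligase, and HOOK3, a dynein adaptor, had 0.9852. The fifth, of THAP4 and the autophagy protease gene ATG4B, had 0.9847. All 5 were called at 15 minutes, with Z-scores of 0.52 to 1.91, and in all 5 the 15-minute interval contained both 5' ends.

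The least efficient members were those of KCTD19 and LRRC36 (0.8018), of the zinc finger genes ZNF394 and ZKSCAN5 (0.8031), of EPS8, an actin regulator, and STRAP, a factor of RNP assembly (0.8039), of COPS2, a subunit of the COP9 signalosome, and GALK2, a sugar kinase (0.8043), and of FAU, which encodes a ribosomal protein, and MRPL49, of the mitochondrial ribosome (0.8044). None of these 5 was called at 15 minutes. All 5 overlapped an SNS-seq peak of the 2 to 4 kb fraction, and 4 of them one of 0.5 to 2 kb, EPS8/STRAP being without. Their GC content ran from 62.8% to 66%, against 75.9% to 78.6% in the 5 most efficient.

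Whether an origin over a divergent promoter fires more efficiently than one over a single promoter was asked with the chromosomes as blocks. The mean efficiency was 0.8985 ± 0.0448 (SD over 681 origins; median 0.903, range 0.8018 to 0.9885) against 0.9107 ± 0.0446 (SD over 6734 origins; median 0.9178) where 1 coding 5' end was held. The ranges overlapped almost entirely. Within chromosomes the members were lower by 0.0116 (SE over chromosomes 0.00157), on 21 of 23 chromosomes (adjusted p = 9.0e-05, permutation of signs). Compared within steps of 2 percentage points of GC content the difference turned to +0.00213 (SE 0.00113, p = 0.0867, permutation of signs), and with length and GC content both held it was -0.000739 (p = 0.451, permutation of signs).

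The same held for the classes. Classes are the lower, middle and upper part of the 3-hour list by rank, equal in number, with efficiencies above 0.9065 called high and those up to 0.8419 low. Of the members 325 (47.7%, 95% interval 43.9 to 51.6) were in the high class, 270 (39.6%) in the medium class and 86 (12.6%) in the low class. Of all 3-hour origins 33.3% are in the high class, and of those with 1 coding 5' end 58.7% were. The difference from the latter was -10.5 percentage points (SE 1.76, lower on 19 of 23 chromosomes, adjusted p = 3.1e-04, permutation of signs), and +2.06 points (p = 0.0977) within GC steps. The members' share in the high class was therefore above that of the whole list and below that of origins with 1 coding 5' end. At matched GC content the gap to the latter had the opposite sign and did not pass the test. Of the 181 origins with several coding 5' ends on 1 strand, 49.2% (95% interval 41.7 to 56.7) were in the high class. Their mean efficiency was 0.9024, and the members were not tested against them.

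GC content itself was lower in the members, at 67.9 ± 3.62% (SD over origins) against 69.4 ± 3.73%. The difference within chromosomes was -1.40 points (SE 0.122), with members lower on 21 of 23 (adjusted p = 4.0e-05, permutation of signs; the unadjusted p of 1.0e-05 is the smallest that 100000 flips can give). Across the members efficiency rose with GC content, with a Spearman rho of 0.853 over 681 origins, close to the 0.818 over 6734 origins with 1 coding 5' end. These are descriptions across origins of 1 map, which share library and base composition. In the step of 62 to 64% GC the mean efficiency was 0.8443 (standard error over 60 origins 0.00353) in members and 0.8433 in the comparison origins. In the step of 68 to 70% it was 0.9176 (standard error over 138 origins 0.00188) and 0.9116. At 74 to 76% it was 0.9606 and 0.957. Members were also the higher at 66 to 68%, with 0.8863 against 0.8852, and at 70 to 72%, with 0.9346 against 0.9316. In the remaining steps shown for both groups they were the lower. The values there were 0.8306 against 0.8322 at 60 to 62%, 0.8626 against 0.8633 at 64 to 66% and 0.946 against 0.9479 at 72 to 74%.

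**Figure D1:**
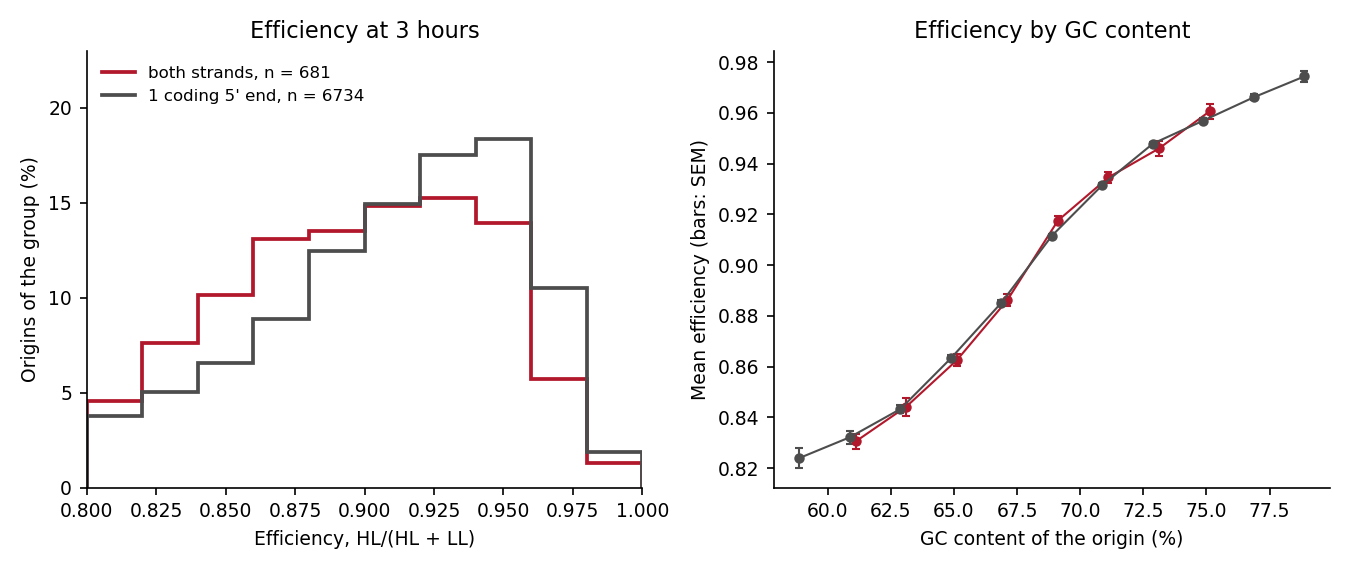
Left, share of origins (%) by efficiency, in steps of 0.02, for the 681 divergent-promoter origins (red) and the 6734 with 1 coding 5' end (grey). Right, mean efficiency by GC content of the called interval in steps of 2 percentage points with standard errors over origins, for steps with at least 10 origins. The red distribution lies to the left of the grey one. The lines by GC content run close to each other, from 0.8306 at 60 to 62% to 0.9606 at 74 to 76% in members. Members are the higher in some steps and the lower in others, and the lines are furthest apart at 68 to 70% (0.9176 against 0.9116).

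The number of CpG dinucleotides over that expected from the C and G content was 0.790 in members and 0.773 in the comparison origins, a difference of +0.0181 (SE 0.0049, adjusted p = 0.00141, permutation of signs). Against the 1218 comparison origins that also hold an opposite non-coding gene start, whose ratio was 0.810, the difference was reversed. It was -0.0162 (SE 0.00347, p = 0.00127, permutation of signs). A G4 motif (4 G runs, each 3 or more long, parted by 1 to 7 bases, searched on both strands) was found in 530 members (77.8%, 95% interval 74.5 to 80.9), against 71.0% of all 3-hour origins and 81.2% of those with 1 coding 5' end. That difference was -3.50 points (SE 1.46, adjusted p = 0.033, permutation of signs) and -0.563 within GC steps (p = 0.737).

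Mean efficiency had no steady order by the distance between the starts. In head-to-head members at 1 to 100 bp the mean was 0.8939 (standard error over 201 origins 0.00309), at 101 to 200 bp 0.9029 (standard error over 138 origins 0.00388), at 201 to 300 bp 0.8949 (n = 53), at 301 to 500 bp 0.905 (n = 41) and beyond that 0.9012 (n = 28). Where the starts overlapped it was 0.898 up to 300 bp and 0.9 beyond. These means were not tested against each other. Across the 461 head-to-head members the rho of efficiency and distance was 0.0938. Length, which the rule itself favours, since a longer interval is likelier to hold 2 starts, had a median of 1100 bp in members (300 to 15900 bp) and 1000 bp in comparison origins.

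The longest member, of 15900 bp, lies over SLC25A22, a mitochondrial carrier, with CEND1 and PANO1, and had an efficiency of 0.8288. Its 15-minute interval was 1400 bp and contained the starts of SLC25A22 and PANO1. The second, of 6700 bp, lies over STX10, a syntaxin, and the immediate early gene IER2 (0.8603), with a 15-minute interval of 600 bp that held neither 5' end. The next, of 5800 bp, lies over the chloride channel gene CLIC3 and PAXX, a factor of DNA end joining (0.8655). The 3 members with 4 coding 5' ends were those of KRIT1 and ANKIB1 (0.8781), of NDUFA11 and VMAC (0.8694), and of BORCS8, MEF2B and RFXANK (0.8111).

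To ask the question from the side of the genes, the 19996 distinct coding 5' ends were taken, whether or not an origin was called there, and those on chromosome Y or with only overlapping opposite starts nearby were left out. Of the 1706 that have a head-to-head partner within 1000 bp, 61.7% lay in a 3-hour origin. Of the 17259 with no opposite-strand coding start within 1000 bp, 40.1% did. The difference was 21.3 points (SE 1.94), in the same direction on 23 of 23 chromosomes (adjusted p = 4.0e-05, permutation of signs). In the 15-minute list it was 31.7% against 26.2%, a difference of 5.67 points (SE 1.45, p = 5.9e-04, permutation of signs).

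These starts also differed in base composition. In the 500 bp around the start GC content was 63.9% for head-to-head and 60.1% for lone starts, and the CpG ratio 0.812 and 0.602. A GC content over 50% together with a CpG ratio over 0.6, as in CpG islands, was met by 88.7% of the head-to-head and 55.3% of the lone starts. Among the starts that met it, 67.7% of 1514 head-to-head ones lay in a 3-hour origin and 66.4% of 9546 lone ones. Within steps of both GC content and CpG ratio a difference of 6.59 points remained (SE 1.24, on 19 of 23 chromosomes, p = 9.0e-05, permutation of signs), and within GC steps alone 10.8 points. Both of these comparisons were chosen after seeing the data.

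Counted by pairs, 824 mutual nearest head-to-head pairs within 1000 bp were annotated. For 462 of them (56.1%, 95% interval 52.6 to 59.5) 1 origin held both ends, for 95 (11.5%) an origin held 1 end and for 267 (32.4%) neither end lay in an origin. No pair had its ends in 2 different origins. The caller joins windows within 500 bp of each other, so only the 66 pairs at 501 to 1000 bp bear on this, and 0 of 66 allows a share of up to 5.44% (95% exact interval). The share of pairs with both ends in 1 origin was 62.7% at 1 to 100 bp and 39.4% (95% interval 27.6 to 52.2) at 501 to 1000 bp. The share with 1 end held went from 3.73% to 34.8% over the same distances, and that with neither from 33.5% to 25.8%, within their intervals.

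**Figure D2:**
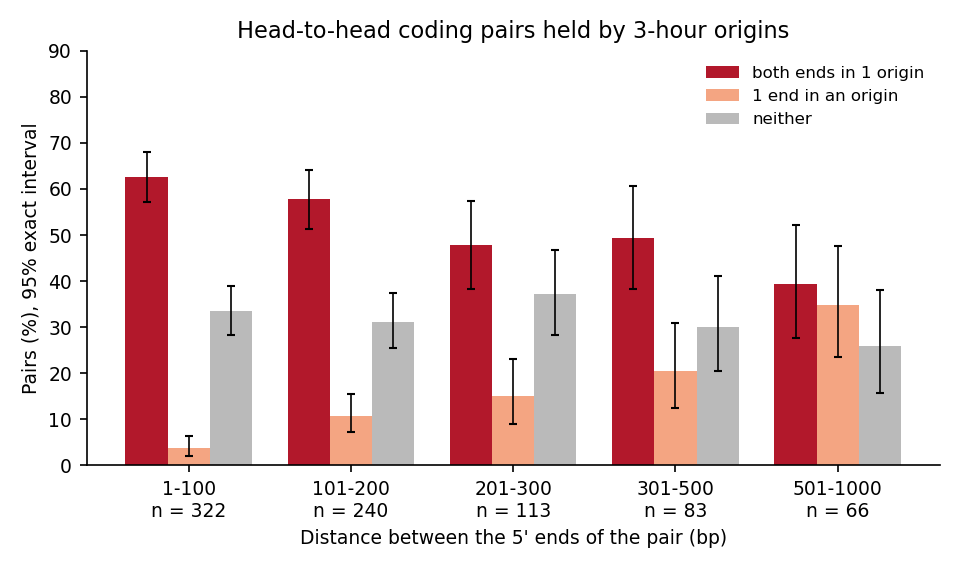
Share of head-to-head coding pairs (%) with both, 1 or neither 5' end inside a 3-hour origin, by the distance between the ends in bp, with 95% exact binomial intervals as bars. From 1-100 to 501-1000 bp the share with both ends held falls from 62.7% to 39.4% while the share with 1 end held rises from 3.73% to 34.8%.

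Of 20 textbook pairs on a list of divergent or closely spaced genes, 15 are annotated with opposite 5' ends within 1000 bp and 9 were members. PRKDC, the kinase of DNA end joining, and MCM4, a subunit of the replicative helicase, start 7 bp apart and shared an origin of 1700 bp with an efficiency of 0.9066 and a 15-minute Z-score of 1.08, whose 15-minute interval of 400 bp held neither start. SURF1 and SURF2 had 0.938, with a Z-score of 0.17, and NUDT1, which clears oxidised nucleotides, and MRM2, a mitochondrial RNA methyltransferase, had 0.941, with a Z-score of 1.16.

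A further 5 members of that list had efficiencies of 0.8265 to 0.8708 and were not called at 15 minutes. PPAT and PAICS, which catalyse steps of purine synthesis, had 0.8708, and TK1, thymidine kinase, with AFMID had 0.8622. The flap endonuclease gene FEN1 with TMEM258 had 0.8446, HARS1 and HARS2, the histidyl-tRNA synthetases of cytosol and mitochondria, had 0.8274, and SERPINI1 and PDCD10 had 0.8265. Among the close pairs that were not members, neither end of ATM/NPAT, MRPS12/SARS2 and ORC3/RARS2 lay in a 3-hour origin, and 1 end did for IDH3G/SSR4 and RAD51C/TEX14.

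At 15 minutes 464 of the 681 members (68.1%, 95% interval 64.5 to 71.6) overlapped a called origin, against 40.1% of all 3-hour origins and 73.4% of those with 1 coding 5' end. The difference from the latter was -5.11 points (SE 1.97, lower on 15 of 23 chromosomes, adjusted p = 0.0301, permutation of signs). Within GC steps it turned to +4.04 points (SE 1.84, p = 0.0456, permutation of signs), and within steps of length and GC content together it was -1.01 points (p = 0.456, permutation of signs). It was -3.45 points (p = 0.106) against origins with no other gene start, and -2.07 points (p = 0.284, both by permutation of signs) when starts of all coding transcripts defined the groups. Other alternatives gave a larger shortfall. Against the 1218 comparison origins with an opposite non-coding gene start the difference was -12.1 points (SE 1.85, p = 1.0e-05, permutation of signs). Within steps of length alone it was -9.48 points (p = 2.0e-05, permutation of signs). When at least 50% of the origin had to be covered it was -7.71 points (p = 9.9e-04, permutation of signs). Among the members called at 15 minutes the mean Z-score, the score that the authors deposited for that list, was -0.122 (SD 0.955, n = 464) against 0.128 (SD 0.955, n = 4940), a difference of -0.251 (SE 0.0551, adjusted p = 0.00141, permutation of signs) of -0.0800 (p = 0.0869) within GC steps, and of -0.143 (SE 0.044, p = 0.00567, permutation of signs) within steps of length and GC content together. The last of these was chosen after seeing the data.

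Calling at 15 minutes followed efficiency at 3 hours. In the paper most origins of the whole map called at both times were in the high class, and few in the low class. Shares by class were not computed here for other origins, so the order below is not shown to be particular to members. Among members calling was made for 305 of 325 (93.8%) in the high class, 147 of 270 (54.4%) in the medium class and 12 of 86 (14%) in the low class. The exceptions at the upper end were the origin of CORO7, an actin regulator, and DNAJA3, a mitochondrial chaperone, with an efficiency of 0.9754 in an interval of 300 bp, that of PLAA and IFT74 (0.9466, 600 bp) and that of TMEM39A and POGLUT1 (0.9437, 600 bp). At the lower end CBLN3/KHNYN (0.812), SHOX2/RSRC1 (0.8202) and TDP2/ACOT13 (0.8209) were called, with Z-scores of 0.32, -1.77 and -1.64. The highest Z-scores belonged to SPIRE1/PSMG2 (1.96, efficiency 0.9718), GPR143/SHROOM2 (1.91) and CAPZB/MICOS10 (1.86, efficiency 0.9174).

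The 15-minute interval was shorter than the 3-hour one, with medians of 700 and 1200 bp in the 464 members, and of 700 and 1100 bp in the 4940 comparison origins. It contained both 5' ends in 283 of 464 members (61%, 95% interval 56.4 to 65.5), only the plus-strand gene's end in 65 (14%), only the minus-strand gene's end in 60 (12.9%) and neither in 56 (12.1%). The plus-strand and the minus-strand end were held alone about equally often. Its centre was a median of 189.5 bp from the midpoint of the 5' ends, and 26.7% of the centres were within 100 bp of it.

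At 3 hours the intervals of members, which must hold both starts, reached a median of 537 bp into the plus-strand gene and 513 bp into the minus-strand gene. Since a gene lies on each side of a member, these medians average over its orientation. In the 461 head-to-head members the larger side of each interval reached a median of 607 bp beyond the start and the smaller side 280 bp. The sides were sorted by size in each member, so this order holds by construction. It cannot show whether members are as lopsided as comparison origins, whose sides were split by gene direction and not by size. Origins with 1 coding 5' end reached 659 bp into the gene and 294 bp away from it. At 1 kb from the midpoint, 14.6% of members were still covered on the left and 15.8% on the right, against 7.8% on the far side and 25.1% on the gene side of the comparison origins. At 15 minutes 54.1% of the members were covered at the midpoint, the most at any distance being 54.3%, and 4.55% and 5.95% at 1 kb to the left and right. Members were picked by 3-hour intervals that span the midpoint, and in the paper nearly all 15-minute origins overlap 3-hour ones. The place of this peak is therefore not independent of the rule. In the comparison origins the 15-minute coverage was highest, at 65.4%, 125 bp into the gene.

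**Figure D3:**
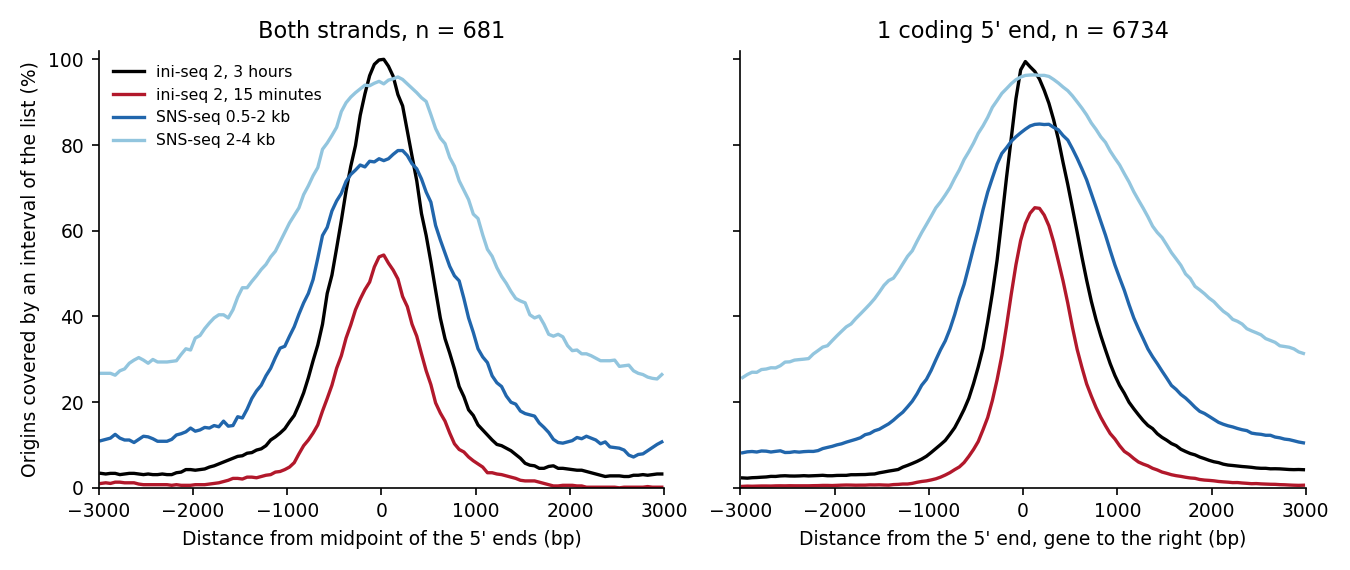
Share of origins (%) covered by an interval of each list against the distance in bp from the midpoint of the 5' ends for the 681 divergent-promoter origins (left), and from the 5' end with the gene to the right for the 6734 origins with 1 coding 5' end (right). The left panel has a gene on each side and is not turned by any feature, so its left and right average over orientations, while in the right panel the 15-minute line peaks at 65.4%, 125 bp inside the gene.

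Nearly all members were also found by SNS-seq. A peak of the 0.5 to 2 kb fraction overlapped 628 of 681 (92.2%, 95% interval 89.9 to 94.1), against 78.0% of all 3-hour origins and 93.6% of those with 1 coding 5' end. The difference from the latter was -1.36 points (SE 1.15, p = 0.273, permutation of signs). When at least 50% of the origin had to be covered the shares were 78.9% and 86.8%, a difference of -8.00 points (SE 1.6, p = 2.5e-04, permutation of signs). A peak of the 2 to 4 kb fraction overlapped 674 members (99%), against 91.3% of all 3-hour origins and 98.6% of comparison origins (p = 0.354, permutation of signs). The 0.5 to 2 kb peaks covered 76.6% of the member midpoints, and their coverage at 1 kb was 34.2% to the left and 34.4% to the right.

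A peak in either fraction was missing for 7 members (1.03%), against 8.37% of all 3-hour origins and 1.35% of those with 1 coding 5' end. These 7 members had efficiencies of 0.8098 to 0.8715, and none was called at 15 minutes. The most efficient were those of IQCB1, a ciliary protein, and EAF2, a partner of an elongation factor (0.8715), of RECQL, a DNA helicase, and GOLT1B (0.8558), and of GDF9, a growth factor of the oocyte, and UQCRQ, a subunit of respiratory complex III (0.8481). The others were CAB39L/SETDB2 (0.8455), LRRC40/SRSF11 (0.8283), HARS1/HARS2 (0.8274) and COA3/CNTD1 (0.8098). All 7 lay below the members' median efficiency.

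GC skew about the members ran in opposite senses on the left and the right. The skew, (G - C)/(G + C), was taken in bins of 100 bp to 10 kb on each side of the origin centre. To the right, on the side of the plus-strand gene, it was 0.0278 (SE over chromosomes 0.002), and to the left, read along the minus-strand gene, 0.0266 (SE 0.0016), each above 0 on 23 of 23 chromosomes. Origins with 1 coding 5' end had 0.0338 (SE 0.0016) on the gene side and 0.0007 (SE 0.00056) on the far side read away from the origin. Where an opposite non-coding gene started in the origin, the far side had 0.0027 (SE 0.00095). With those origins alone as the comparison, the skew change defined next was still larger in members, by 0.0134 (SE 0.00218, p = 2.0e-05, permutation of signs).

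The skew of the right side less that of the left, the skew change, was 0.0544 ± 0.063 (SD over 681 origins) in members and 0.0345 ± 0.0638 in comparison origins. The difference was 0.0203 (SE 0.00226), with members higher on 22 of 23 chromosomes (adjusted p = 4.0e-05, permutation of signs). It stayed on this side of the threshold in every alternative run, including within GC steps, with windows of 2 kb and with the called interval removed. Within 2 kb the members had 0.0416 on the plus-strand side and 0.0401 on the minus-strand side. Skew of this sign along transcribed strands is known from genes as such, and the parts of transcription and replication in it cannot be told apart here.

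**Figure D4:**
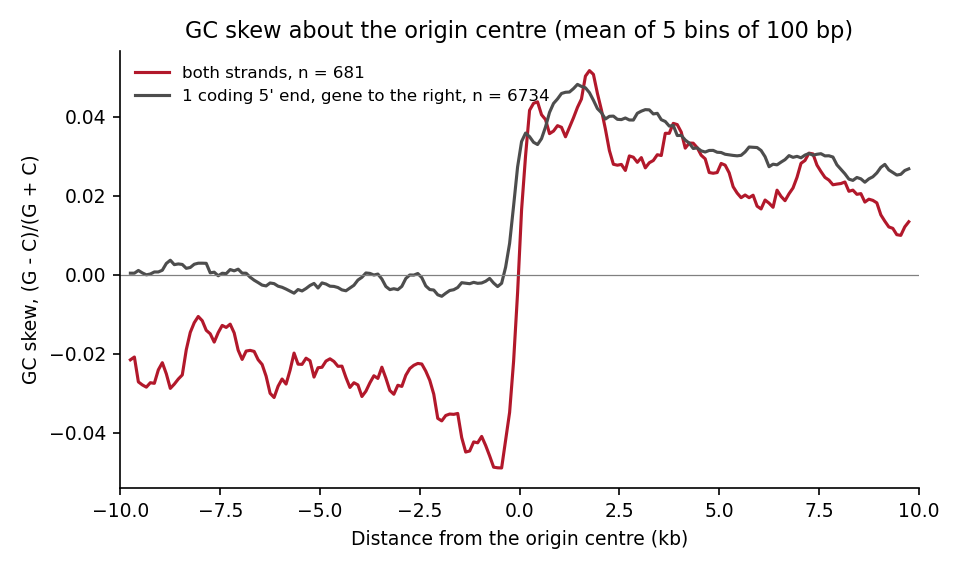
Mean GC skew, a ratio without unit, against distance from the origin centre in kb, smoothed over 5 bins of 100 bp, for the 681 divergent-promoter origins (red) and the 6734 with 1 coding 5' end turned so that the gene lies to the right (grey). The red line changes sign at the centre, with means over 10 kb of 0.0278 on the right and 0.0266 on the left read along the minus-strand gene, whereas the grey line stays near 0 on the far side.

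The motifs were counted in 300 bp centred on the midpoint of the 5' ends of members, on the 5' end of comparison origins, and on all 19996 coding 5' ends, on both strands. ETS motifs (CCGGAAG) were in 162 of 681 members (23.8%, 95% interval 20.6 to 27.2), in 14.9% of comparison origins and at 12.1% of all coding 5' ends. NRF1 motifs (CGCATGCG) were in 6.02%, 3.07% and 2.43%, and YY1 motifs (AAGATGG) in 7.78%, 6.04% and 6.27%. CCAAT boxes were in 31.6%, 28.3% and 33.8%. SP1 motifs (GGGCGG) were in 79.9% of members, 83.9% of comparison origins and 54.3% of all coding 5' ends, and TATA motifs (TATAAA) in 2.64%, 3.01% and 9.17%. Between members and comparison origins the 95% intervals of the shares did not overlap for ETS, NRF1 and SP1. ETS and NRF1 were more frequent in members and SP1 was less frequent. The windows sat at unlike positions, about the midpoint of the starts in members and about the start itself in comparison origins. The intervals cover counting error only, and GC content was not matched. The part of window position and GC content in these gaps was not tested. These shares describe letters in a window and no binding was measured.

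Members with an ETS motif had a mean efficiency of 0.8924 (standard error over origins 0.0034) and those without 0.9004 (0.002). For the CCAAT box the means were 0.892 and 0.9015, and for SP1, whose letters are all G and C, they were 0.9019 (0.0019) and 0.8849 (0.0038). The 18 members with TATAAA had 0.8717 (0.011) and those without 0.8992 (0.0017). In comparison origins each of these gaps had the same sign. Their means with and without were 0.9024 and 0.9122 for ETS and 0.9064 and 0.9125 for the CCAAT box. For SP1 they were 0.9145 and 0.8912, and for TATAAA 0.9037 and 0.911. YY1 differed, with 0.9021 and 0.8982 in members and 0.9076 and 0.9109 in comparison origins. GC content was not matched in these means, and its part in the gaps was not tested. In the stretches printed above, the ETS letters stand in TSR3/GNPTG, the SP1 letters 4 times in GPR143/SHROOM2 and 3 times in POLE/PXMP2, and TMEM258/FEN1 has none of the 6 motifs.

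The genes held were grouped by lists of function, with 7.1% of the 20007 coding gene names in a divergent-promoter origin and 35.5% in another promoter origin as the background. Of 63 genes of DNA replication 16 (25.4%) had their 5' end in a member and 24 (38.1%) in another promoter origin. The 16 members had a median efficiency of 0.9221 against 0.903 over all members, 11 were in the high class (47.7% of all members are), and 12 were called at 15 minutes (68.1% of all members were). In other promoter origins the replication genes had a median of 0.909, below the 0.9172 of all coding genes there. Besides POLE they included GINS1, of the replicative helicase, with ABHD12 (0.9807), POLD3, a subunit of polymerase delta, with LIPT2 (0.959), MCM2 with TPRA1 (0.9554), DBF4, which activates the kinase that fires origins (0.9429), and the sliding clamp PCNA (0.942). The lowest were MCM8 (0.842), CDC45 (0.8441) and FEN1 (0.8446). ORC6, a subunit of the origin recognition complex, had 0.8726.

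DNA repair genes were held in 12 of 76 cases (15.8%), with a median of 0.9143. Of these members 9 were in the high class (47.7% of all members are). A further 18 of the genes (23.7%) lay in another promoter origin, against 35.5% of all coding genes. XRCC3, of homologous recombination, with ZFYVE21 had 0.9672 and a Z-score of 1.01, LIG3 with CCT6B had 0.9411, PMS1 with ORMDL1 0.9281, and the glycosylase gene NTHL1 with TSC2 0.9222. The lowest was ERCC8 with NDUFAF2 (0.8212). These medians stand on 16 and 12 origins, and the range of each list spans most of that of the members.

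Of 88 cytosolic ribosomal protein genes 11 (12.5%) were held, with a median of 0.8361. Of these members 6 were in the low class (12.6% of all members are). At 15 minutes 4 were called (68.1% of all members were). Another promoter origin held 24 of the genes (27.3%), against 35.5% of all coding genes. In other promoter origins the genes of this list had a median of 0.8834 and those of the mitochondrial list 0.8871, against 0.9172 for all coding genes there. RPL7 with RDH10 (0.9552) and RPL35 with ARPC5L (0.9387) stood above the rest, RPLP2 with PIDD1 had 0.9065 and RPL7A with MED22 0.9, and the other 7 lay between 0.8044 and 0.8606. Of 204 mitochondrial genes 28 (13.7%) were held in 27 origins, with a median of 0.8694 and a range of 0.8044 to 0.9806. Another 64 (31.4%) lay in another promoter origin. At the top were MRPS34 with EME2 (0.9806), NDUFS3, a subunit of respiratory complex I, with CELF1 (0.9594), MRPL14 with TMEM63B (0.9499) and MRPL41 with PNPLA7 (0.9491).

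Of 80 chaperone genes 13 (16.2%) were held in 12 origins, with a median of 0.8852. DNAJA3 with CORO7 (0.9754), DNAJA1 with APTX (0.9531), CCT6A, of the cytosolic chaperonin, with PSPH (0.9528) and CCT6B with LIG3 led, and the origin of HSPA1L and HSPA1A, which encode heat shock proteins, had 0.814. Of 35 aminoacyl-tRNA synthetase genes 6 were held in 5 origins, EARS2 with UBFD1 (0.9555), FARS2 with LYRM4 (0.9446), CARS2 with ING1 (0.89), KARS1 with TERF2IP (0.8888) and HARS1 with HARS2. Of 508 zinc finger genes 17 (3.35%) were held, below the 7.1% of all coding genes, among them ZNF10 with ZNF891 (0.9603), ZNF174 with ZSCAN32 (0.96), ZNF398 with ZNF425 (0.9464) and ZNF740 with CSAD (0.9396). Of 73 histone genes 0 were held, and 5 lay in another promoter origin. Such origins held 30 of the chaperone genes (37.5%), 10 of the synthetase genes (28.6%) and 184 of the zinc finger genes (36.2%).

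**Figure D5:**
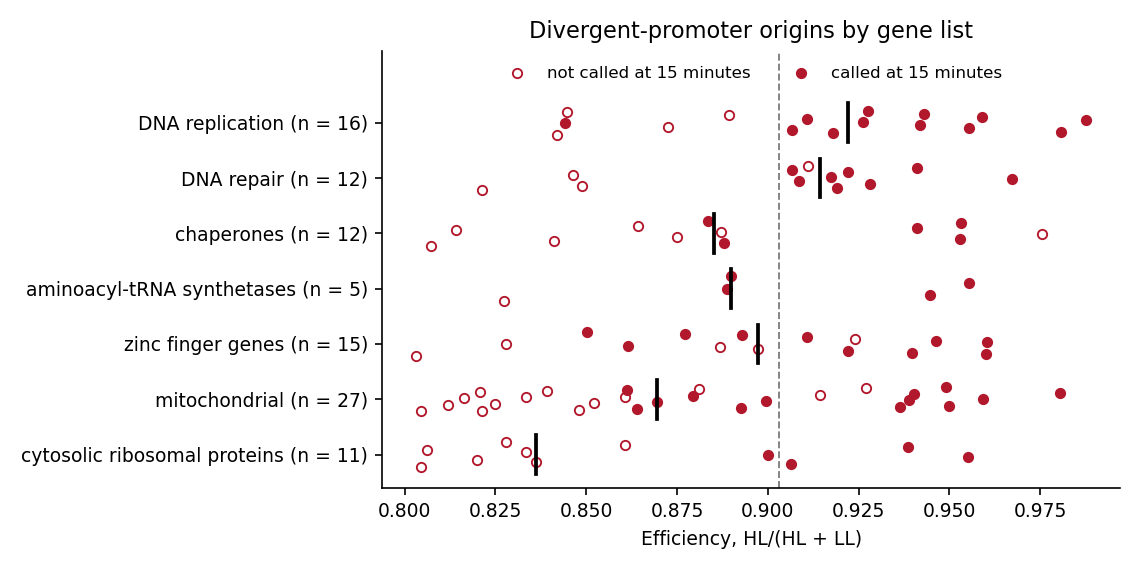
Efficiency of each divergent-promoter origin that holds the 5' end of a gene on a list of function, with black lines at the medians, a dashed line at the median of all 681 (0.903), and filled points for origins called at 15 minutes. Medians run from 0.8361 for cytosolic ribosomal protein genes to 0.9221 for DNA replication genes, and the points of all lists overlap.

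The gap to the nearest other 3-hour origin had a median of 24.0 kb in members and 27.3 kb in comparison origins. On the log10 scale the difference was -0.0327 (SE 0.0251, p = 0.21, permutation of signs). Members were closer on 12 of 23 chromosomes. Against the 1218 comparison origins that also hold an opposite non-coding gene start the difference was -0.118 (SE 0.0309, p = 0.00202, permutation of signs).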

How the data were processed

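The authors aligned reads to hg38, scored 100 bp windows by log2(HL/LL), with 2 as the lower limit, merged windows up to 500 bp apart and called intervals with an efficiency of at least 0.8. The value the authors deposited at 3 hours is this efficiency, a fraction, although the column is headed Z-score. The value deposited at 15 minutes is a score, the Z-score. The deposited SNS-seq lists hold positions only, and 262 peaks off chromosomes 1 to 22, X and Y were left out. For ini-seq 2 the authors give total mapped reads, with fewer HL and LL reads at 15 minutes than at 3 hours. The depth at each origin is unknown.

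Gene 5' ends came from GENCODE 44 gene records and sequence from hg38. Overlap means at least 1 bp. Differences were formed within chromosomes, averaged with weights from both group sizes, and tested by 100000 sign flips of the 23 chromosome differences (two-sided permutation test), with Benjamini-Hochberg adjustment over 12 results; other p-values are unadjusted. Chromosomes of 1 map stand in for replicates, so these p-values measure spread along the genome and not between experiments. The procedure was tested on simulated data. Length, motif shares and gene lists were described without a test.

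Members, lists and tests were chosen with earlier results of these data known. Members named are those on the list of 20 pairs, the 5 highest and 5 lowest in efficiency, the 3 longest, the 3 highest in Z-score, the 3 most efficient not called and 3 least efficient called at 15 minutes, those without SNS-seq peak, those with most 5' ends, and up to 4 of each gene list; the other genes of the replication, repair, ribosomal and chaperone lists and the less efficient members without SNS-seq peak were named after their values were seen. Alternatives matched length or GC content, used transcript starts, other comparison origins, other overlaps and other windows. Python 3.11.15, numpy 2.4.6, pandas 2.3.3, scipy 1.17.1 and matplotlib 3.10.9 were used. Some items on these lists are not reported here.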

Additional observations from a re-analysis of the deposited data

How the results depend on the processing

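Of 105 alternatives to the 12 tested differences, 83 kept the direction and the side of an unadjusted threshold of 0.05. All alternatives run for GC content, for skew change and for the share of coding starts in an origin were among these. Within GC steps mean efficiency became 0.00213, the share in the high class 2.06 points, the share called at 15 minutes 4.04 points, the mean Z-score -0.0800, the 0.5 to 2 kb SNS-seq share 1.59 points, the 2 to 4 kb share 0.946 points and the G4 share -0.563 points. Within length and GC steps efficiency was -0.000739, the high class -0.819 points and calling at 15 minutes -1.01 points. Within length steps the SNS-seq shares were -3.03 and -0.161 points. With transcript starts, calling at 15 minutes was -2.07 points and the 0.5 to 2 kb share 0.347 points. Against origins with no other gene start, calling was -3.45 points and G4 -2.80 points. Against those with an opposite non-coding start the SNS-seq shares were -3.75 (p = 0.0102) and -0.0213 points (p = 0.971, both by permutation of signs). The CpG ratio was -0.0162 (p = 0.00127) and the log10 gap -0.118 (p = 0.00202, both by permutation of signs). Of these only the 2 to 4 kb share did not pass the threshold. With 50% coverage the 0.5 to 2 kb share was -8.00 points, and with head-to-head members alone the log10 gap was 0.00755. The causes were not tested. No paired analysis was possible because each condition has 1 list. Depth at each origin is unknown, and efficiencies below 0.8 are not in the lists, so low-efficiency initiation at divergent promoters was not analysed here.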

Other observations

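Some members brought together genes of related processes from both strands, among them DNA metabolism, purine synthesis, tRNA charging, protein folding, mitochondria and transcription. PRKDC and MCM4, PPAT and PAICS, HARS1 and HARS2, HSPA1L and HSPA1A, MRPL36 and NDUFS6, and ZNF891 and ZNF10 are such origins, with efficiencies of 0.9066, 0.8708, 0.8274, 0.814, 0.9271 and 0.9603. They were picked after their values were seen and carry no test.

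Members that held more kinds of the ETS, NRF1, CCAAT and YY1 motifs did not show a steady order of efficiency. The mean was 0.9051 in the 300 members with none of the 4 kinds, 0.8946 in the 299 with 1 and 0.8844 in the 76 with 2, while the 4 members with 3 kinds had 0.9308 and the 2 with all 4 kinds 0.9481. GC content went the same way, at 68.6%, 67.4%, 66.8%, 69.8% and 71.1%, and its part in this order was not tested.

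In the members efficiency at 3 hours and the Z-score at 15 minutes had a Spearman rho of 0.372 over the 464 called in both lists, against 0.364 over 4940 origins with 1 coding 5' end, as a description across origins of 1 map.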
